A study of Rattus norvegicus with 18 samples.

Results

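Gene expression in the dorsal hippocampus of rats was compared between 6 d and 1 h after inhibitory avoidance training. The comparison takes the 3 pools labelled as trained and killed at 6 d and the 3 pools labelled as trained and killed at 1 h, 6 of the 18 libraries of the study. All animals were adult Long-Evans rats, an outbred strain, and each library was made from RNA of 5 rats combined before sequencing, so that differences between single rats were averaged within a pool. The naive group, 3 further hippocampal pools of rats that stayed in the home cage, served to estimate the spread and to place both times against an untrained level. The prelimbic cortex, a medial prefrontal area, was sampled under the same conditions and gave 6 pools at the same times for comparison. The labels give no sex, no age beyond adult, and no group that was handled or shocked without learning. They also do not say whether hippocampal and prelimbic pools came from the same rats, and they name no batch. Libraries carry running numbers in blocks by group, so the order of handling and the group cannot be told apart.

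In inhibitory avoidance an animal learns to stay out of a compartment in which it received a foot shock. The dorsal hippocampus is needed to form such a memory, and its role is known to become smaller as the memory ages and cortical areas take over. Neuronal activity during learning is known to switch on immediate early genes within minutes. Their transcripts are usually short-lived, and many encode transcription factors that act on later genes. A comparison between a late and an early time therefore asks whether genes raised early are back at their untrained level, and whether other genes set the late state apart.

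The count tables give Ensembl gene IDs without names, and 0 of their 32662 IDs matched the reference table. No gene could be assigned a function here, tissue and cell type markers were not checked, and sequences are not shown. The genes are described by their behaviour, and 4 of them by ID. These are the 2 most raised and the 2 most lowered among genes that passed the test between the times. In bulk tissue of this kind, fewer cells of a type and less RNA per cell cannot be told apart.

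Total gene counts were 7921311 to 8806419 in the 6 d pools and 8914752 to 9136114 in the 1 h pools. Every 1 h pool was thus deeper than every 6 d pool (p = 0.1, two-sided exact permutation test, the smallest p that 3 pools against 3 allow, and 0.4 after adjustment over 4 tests of depth and read assignment). The share of reads outside gene models averaged 11.1% ± 0.858 at 6 d and 11.4% ± 0.423 at 1 h (SD, n = 3 each; exact permutation p = 0.7). The first principal component of the 9 hippocampal libraries held 23.1% of the variance. The 6 d pools scored 8.06, 21.3 and 0.691 on it and the 1 h pools −16.8, −9.60 and −13.7, without overlap. The naive pools scored 1.25, 14.2 and −5.33 so that naive pools 1 and 2 lay within the range of the 6 d pools and naive pool 3 between the trained groups, nearer to 1 h pool 2 than to any 6 d pool.

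Between the times, 58 genes rose and 100 fell at 6 d relative to 1 h, out of 14305 genes tested (edgeR quasi-likelihood test, Benjamini-Hochberg adjusted p under 0.05). These 158 genes are 1.1% of the genes tested, 0.405% in the upward and 0.699% in the downward direction. Most differences were small. The median log2 fold change was 0.42 among genes that rose and −0.47 among genes that fell, and 110 of the 158 differed by less than 1.5-fold. Of the genes that rose 4 differed by over 2-fold, and of those that fell 10 did. All 158 genes had no overlap between the 6 d and the 1 h pools, as did 18.1% of all genes tested, 8.75% higher and 9.4% lower at 6 d.

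The called genes were mostly well expressed. Ordered by mean level, the genes tested were divided into 4 equal groups, which held 9, 33, 45 and 71 of the 158 from the lowest level to the highest. Among all genes tested, 69 differed more than 2-fold, and 55 of these were not called, 42 of them higher and 13 lower at 6 d. These 55 had a median level of 2.01 CPM (counts scaled to the TMM-normalized library size) in the higher group. For 92.2% of the genes tested the 95% interval of the log2 difference lay within 1 in either direction, and for 68.6% within 0.5.

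**Figure D1:**
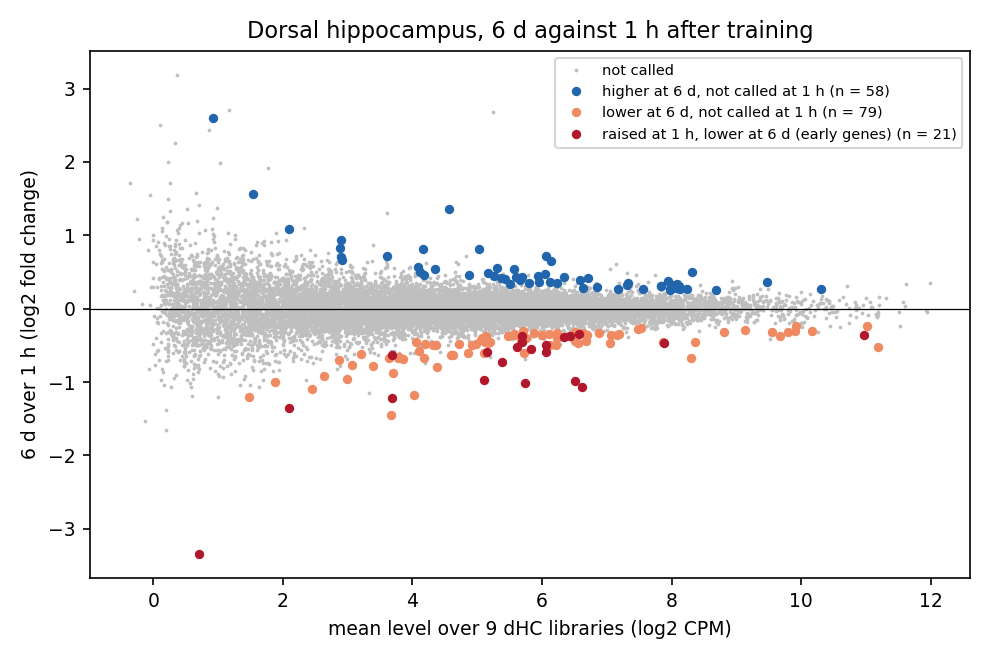
Log2 fold change of 6 d over 1 h in the dorsal hippocampus (vertical axis) against the mean level over the 9 hippocampal libraries in log2 CPM (horizontal axis), 1 point per gene tested. The 58 genes higher at 6 d (blue) and the 100 lower at 6 d (red for the 21 that had been raised at 1 h, orange for the other 79) lie mostly within 2-fold of no difference.

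The first question was how far genes raised early had come back. At 1 h, 31 of 14305 genes were higher and 1 was lower than in naive rats (0.217% and 0.00699% of the genes tested, 0.224% together). The 31 were 14, 17 and 15 without 1 h pool 1, 1 h pool 3 and naive pool 1, and 55 and 57 without 6 d pools 2 and 3. Of the 31 raised genes, 21 were called lower at 6 d than at 1 h, which is 67.7% of them. Both comparisons use the 1 h pools, which by itself favours such a count, so it is given as a description. The 21 genes are referred to as early genes that returned.

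The 21 returning genes differed between the times by a median log2 fold change of −0.59, in a range of −3.34 to −0.34, and 5 of them by more than 2-fold. Their median level relative to the mean of the naive pools was 0.01, −0.03 and 0.02 on the log2 scale in the 6 d pools, against 0.55, 0.51 and 0.66 in the 1 h pools. The naive pools themselves lay at −0.06, 0.01 and 0.08. The 6 d pools fell within the range of the naive pools, and the 1 h pools lay above both. The 21 genes were chosen as raised over naive at 1 h and lower at 6 d. That choice by itself favours this pattern, so it is a description. Against naive, the 21 genes had a median log2 fold change of −0.00 at 6 d, 10 above 0 and 11 below. An unadjusted p under 0.05 was found for 1 of them, where 5.62% of all genes tested had one. For all 31 genes raised at 1 h the median at 6 d against naive was 0.09, 20 above 0 and 11 below. Of these 31, 8 had an unadjusted p under 0.05.

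The gene that fell most was ENSRNOG00000000640, one of the returning genes. It had 0.747, 0.573 and 0.375 CPM in the 6 d pools, against 6.07, 5.13 and 6.39 CPM in the 1 h pools. The naive pools had 0.559, 0.781 and 0.680 CPM. All 1 h pools were far above the others, and the 6 d and naive pools overlapped. The log2 fold change of 6 d over 1 h was −3.34 (SE 0.30, 95% interval −3.98 to −2.70, edgeR adjusted p = 8.32e-06), and over 17 alternatives the adjusted p lay between 7.17e-19 and 0.000162. The value at 6 d rests on 3 to 6 counts per library, near the limit of 3 counts.

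The other 10 of the 31 genes raised at 1 h were not called lower at 6 d. All 10 were nevertheless below their 1 h level, with log2 fold changes of −0.67 to −0.12, and for 9 of them the pools did not overlap, where 9.4% of all genes tested were lower without overlap. All 10 were also above their naive level at 6 d, by 0.13 to 0.51 on the log2 scale, with an unadjusted p under 0.05 for 7, where 5.62% of all genes tested had one. None was called against naive at 6 d. These 10 genes were chosen as raised over naive at 1 h and missing a call at 6 d, so the shared 1 h pools favour a lower level without overlap at 6 d, and the shared naive pools a 6 d level above naive. These counts are a description. In the prelimbic cortex they differed between the times by 0.00 to 0.54 on the log2 scale. All 10 were above 0 there, as were 6965 of 13905 genes tested in both regions. By edgeR 0 of the 10 were called there, where 2.21% of all genes tested in the cortex were.

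The gene called lower at 1 h than in naive rats was higher at 6 d than at 1 h by 0.62 on the log2 scale, which did not pass (edgeR adjusted p = 0.457), and remained at −1.02 against naive. With edgeR, 0 genes were called lower at 1 h and then higher at 6 d; DESeq2 gave 2 and limma voom 0. This count was not steady across edgeR settings: it was 68 when low genes were kept, 33 with the replicate block, 13 with the no-feature covariate and 7 with only the groups compared. Without 6 d pool 3, 1 h pool 2 and naive pool 3 it was 6, 3 and 2, and 0 without any other hippocampal library.

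The second question was which genes separate the times without a call at 1 h. These were all 58 genes that rose and 79 of the 100 that fell, together 86.7% of the 158. A missed threshold does not show that a gene had not changed at 1 h. Every one of the 58 was below its naive level at 1 h and above it at 6 d. All 79 were above their naive level at 1 h, and 75 were below it at 6 d. An unadjusted p under 0.05 at 1 h against naive was found for 39 of the 58 and 69 of the 79, where 10.4% of all genes tested had one. At 6 d against naive it was found for 32 of the 58 and 34 of the 79, where 5.62% of all genes tested had one, and each of these genes had it for at least one of the times. The genes were chosen for a difference between the same 1 h and 6 d pools, which by itself raises these shares and favours levels on opposite sides of naive, so nothing is read from them. At 6 d, 0 genes were called against naive by edgeR, with 804 at an unadjusted p under 0.05, 1 called by DESeq2 and 0 by limma voom.

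The 58 genes that rose had median levels, relative to the mean of the naive pools, of 0.14, 0.27 and 0.17 on the log2 scale in the 6 d pools, against −0.24, −0.12 and −0.33 in the 1 h pools. The naive pools lay at 0.00, 0.08 and −0.10. The naive pools sat between the trained groups and overlapped with neither. The 79 genes that fell had −0.18, −0.21 and −0.10 in the 6 d pools, against 0.29, 0.20 and 0.33 in the 1 h pools. Here the naive pools lay at −0.05, −0.03 and 0.08, again between the trained groups. Over all genes tested these medians were within 0.01 of 0 in every pool.

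**Figure D2:**
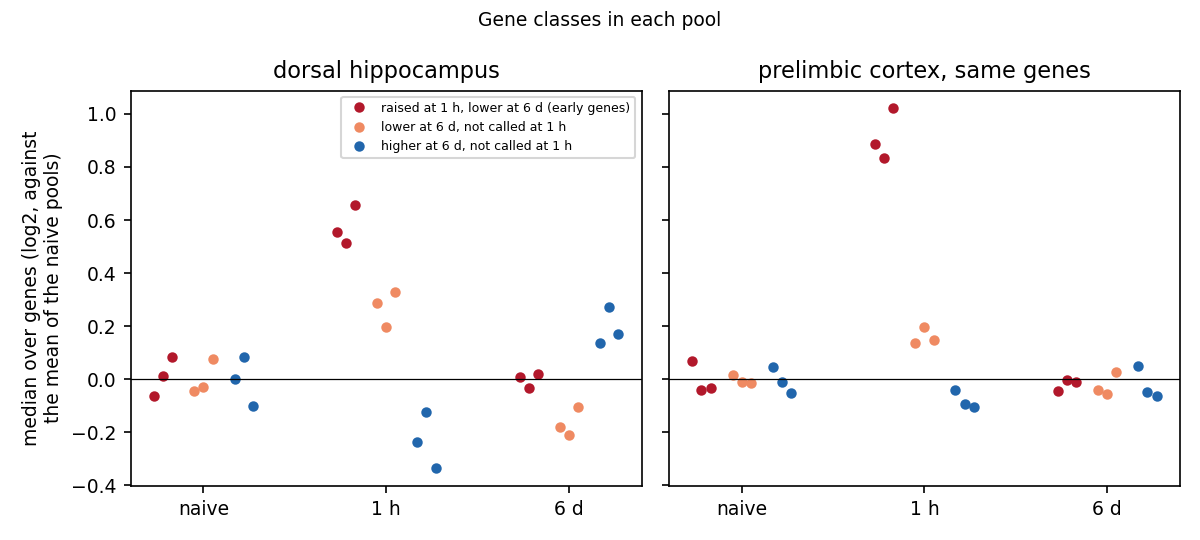
Median over the genes of a class of the log2 level in each pool relative to the mean of the naive pools, in the dorsal hippocampus (left) and for the same genes in the prelimbic cortex (right), 1 point per pool. In the hippocampus the early genes that returned (red) are raised at 1 h and level with naive at 6 d. The classes without a 1 h call (orange, blue) lie on opposite sides of naive at the trained times. All classes were chosen on these hippocampal pools.

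Where the naive level lay was expressed as a position on the log2 line between the times, with 0 at the 1 h level and 1 at the 6 d level. A value near 1 describes a gene that differed from naive at 1 h and had come back, a value near 0 a gene that differed from naive at 6 d but little at 1 h. The naive pools entered the comparison of the times through the estimate of the spread, the filter on low counts and the TMM normalization. They were not part of the contrast itself. The median position was 0.73 for the 100 genes that fell and 0.55 for the 58 that rose. Calculated with single naive pools, it was 0.83, 0.77 and 0.56 for the genes that fell and 0.57, 0.69 and 0.28 for those that rose. Naive pool 3 was the closest to the 1 h pools for both sets. The naive level was nearer to 6 d than to 1 h for 81 of the 100 genes that fell and 34 of the 58 that rose, and for 54.6% of all genes tested. Without 6 d pool 3 the median position of the genes then called lower was 0.46.

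Within these sets the early genes that returned had a median position of 1.00, in a range of 0.73 to 1.48. The 79 that fell without a 1 h call had a median of 0.60, and 52 of them lay between 0.25 and 0.75, 26 above and 1 below. Of the 58 that rose, 46 lay between these limits, 7 above and 5 below. Genes at an intermediate position made up most of both sets without a 1 h call, and 3277 of all 14305 genes tested. Among genes called between the times, a 1 h call favours a position near 1, and its absence a lower one. The positions of these classes are therefore a description. The stricter set with an unadjusted p of at least 0.05 at 1 h against naive held 29 genes, 19 that rose and 10 that fell, with a median position of 0.35. All 29 had an unadjusted p under 0.05 at 6 d against naive, where 5.62% of all genes tested had one. Of the 29, 0 differed more than 2-fold between the times. Their naive position is low by construction, since a small 1 h difference from naive was required. Together with a called difference between the times, that requirement also favours a difference from naive at 6 d. Nothing is read from the 29 of 29.

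**Figure D3:**
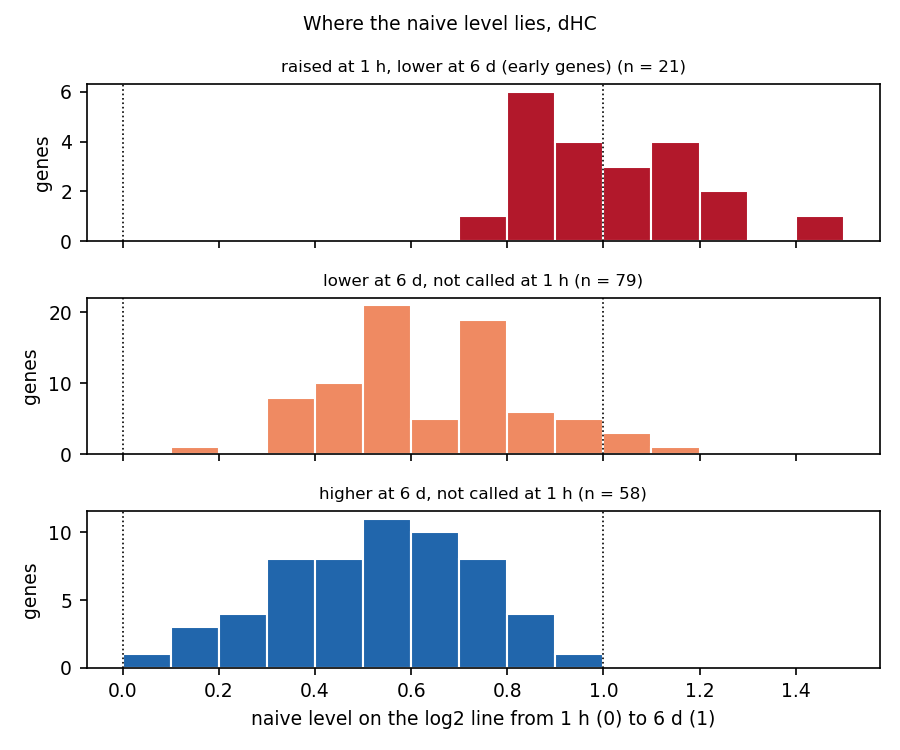
Number of called genes (vertical axes) by the position of the naive level on the log2 line from the 1 h level (0) to the 6 d level (1), shown for 3 classes, with dotted lines at 0 and 1. The 21 early genes that returned centre on 1, and the 79 lower and 58 higher genes without a 1 h call spread between the lines with medians of 0.60 and 0.55.

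Among the called genes, the one that rose most was ENSRNOG00000010378. It had 3.11, 6.19 and 3.00 CPM in the 6 d pools, against 0.675, 0.112 and 1.21 CPM in the 1 h pools. The naive pools had 1.45, 5.08 and 0.907 CPM and overlapped with both. The log2 fold change of 6 d over 1 h was 2.61 (SE 0.58, 95% interval 1.38 to 3.83, edgeR adjusted p = 0.0325). It rests on 1 to 11 counts per library at 1 h. Without 1 h pool 1, 2 or 3 or 6 d pool 2 the adjusted p was 0.151, 0.101, 0.0932 and 0.163, and 17 alternatives together spanned 6.23e-11 to 0.163.

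The next largest rise among the called genes was that of ENSRNOG00000027432. It had 4.60, 4.01 and 4.38 CPM in the 6 d pools, against 2.14, 1.45 and 0.771 CPM in the 1 h pools. The naive pools had 2.91, 2.99 and 3.52 CPM, between the trained groups and without overlap with either. The log2 fold change of 6 d over 1 h was 1.57 (SE 0.29, edgeR adjusted p = 0.0120). Against naive it was 0.46 at 6 d (SE 0.25, edgeR adjusted p = 0.892) and −1.11 at 1 h (SE 0.30, edgeR adjusted p = 0.167). The call between the times was lost without 1 h pool 3 (edgeR adjusted p = 0.0989, the highest of 17 alternatives, the lowest being 1.58e-05).

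ENSRNOG00000016164 had the second largest fall among the called genes and was not called at 1 h against naive. It had 5.60, 3.78 and 14.8 CPM in the 6 d pools, against 18.7, 18.5 and 27.9 CPM in the 1 h pools. The naive pools had 18.1, 11.2 and 11.2 CPM. The trained groups did not overlap, but 6 d pool 3 stood well above the other 6 d pools. The log2 fold change of 6 d over 1 h was −1.45 (SE 0.30, 95% interval −2.07 to −0.82, edgeR adjusted p = 0.0225). Against naive the gene differed by −0.77 at 6 d (SE 0.32, edgeR adjusted p = 0.833) and by 0.68 at 1 h (SE 0.27, edgeR adjusted p = 0.384). The call between the times was lost with DESeq2 (adjusted p = 0.142), without 1 h pool 1 or 3 (edgeR adjusted p = 0.0668 and 0.180) and without 6 d pool 1 or 2 (edgeR adjusted p = 0.0640 and 0.0907), and 18 alternatives together spanned 1.57e-21 to 0.180.

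**Figure D4:**
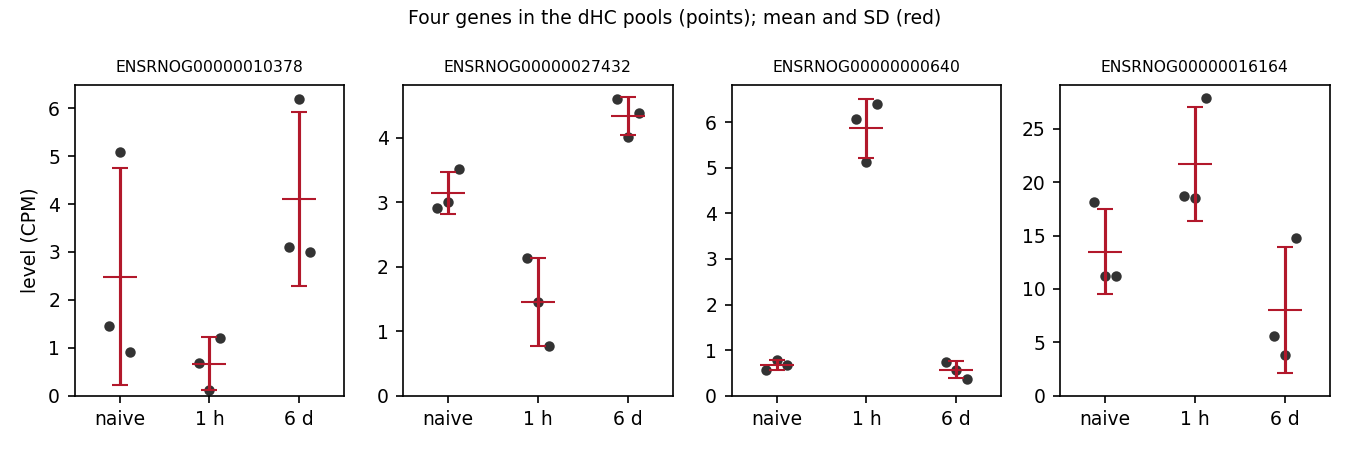
Level in CPM of 4 genes in each dorsal hippocampus pool (points), with the mean and SD of 3 pools in red, for naive, 1 h and 6 d. ENSRNOG00000000640 is high at 1 h alone, whereas for ENSRNOG00000027432 the naive pools lie between the 1 h and the 6 d pools.

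Calls depended on single pools, and more so for genes without a 1 h call than for returning genes. Returning genes had passed 2 thresholds that share the 1 h pools, which favours larger differences and calls that are kept. Their median log2 fold change between the times was −0.59, against −0.46 and 0.42 for the genes without a 1 h call that fell and rose. Every one of the 158 genes kept the direction of its difference with each of the 9 hippocampal libraries left out in turn. Each such fit shares most of its libraries with the full one. For all 158 the 6 d and 1 h pools did not overlap, so leaving out a single library could hardly reverse a direction. Nothing is read from this count. With each of the 6 compared pools left out, 16 of the 158 were called in all 6 fits. Of these 16 genes, 14 were among the 21 early genes that returned and 2 were without a 1 h call. These 2 rose at 6 d, by 1.36 and 0.54 on the log2 scale, with edgeR adjusted p-values of 0.00201 and 0.00137. They were chosen for this stability after their values were seen.

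Leaving out 1 h pool 1 gave 29 calls in place of 158, 1 h pool 3 gave 18 and 6 d pool 2 gave 40. Leaving out 6 d pool 1 gave 236 and 6 d pool 3 gave 343. The returning genes numbered 10 and 12 without 1 h pools 1 and 3, 13 without naive pool 1, and 19 to 25 without any other library. The genes without a 1 h call numbered 19, 6 and 19 without 1 h pool 1, 1 h pool 3 and 6 d pool 2, and 214 and 313 without 6 d pools 1 and 3. More genes were called lower than higher in every one of these fits. With all libraries thinned to equal depth 55 genes were called higher and 90 lower.

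**Figure D5:**
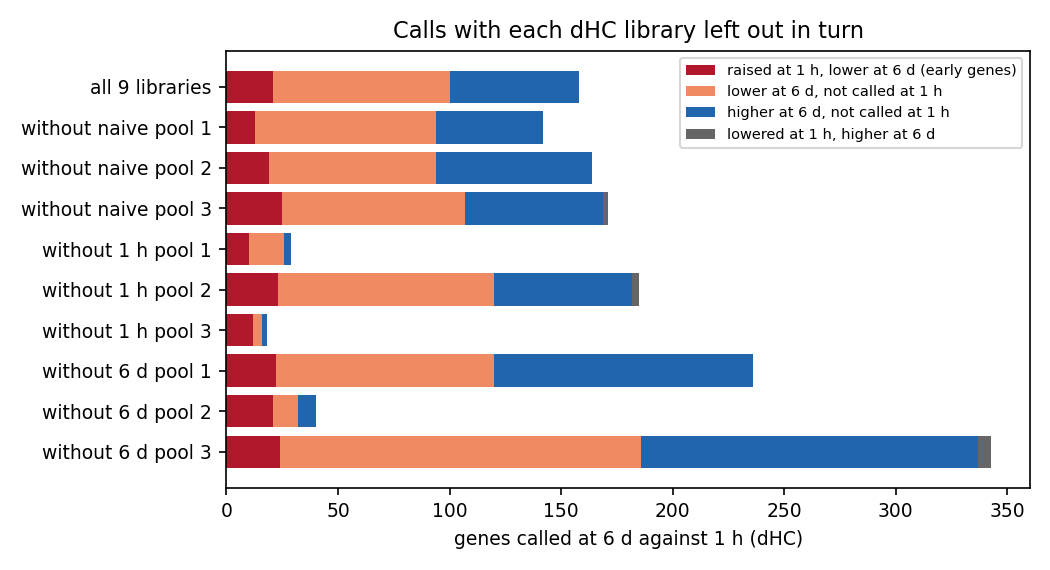
Number of genes called between 6 d and 1 h in the dorsal hippocampus (horizontal axis) with all 9 libraries and with each left out in turn, divided by class. The early genes that returned (red) number 10 to 25 in all bars, while the genes without a 1 h call (orange, blue) range from 6 to 313 with a library left out.

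The same genes were then looked up in the prelimbic cortex, whose pools are separate libraries. There 317 of 14318 genes were called between 6 d and 1 h, 2.21% of the genes tested, 166 of them higher (1.16%) and 151 lower (1.05%). Of the 100 genes that fell in the hippocampus, 99 were tested in the cortex and 31 were called lower there, 31.3% of these genes and 20.5% of the 151 called lower in the cortex. None of the 99 was called higher. The 31 shared genes were 15, 11 and 15 without hippocampal 1 h pool 1, 1 h pool 3 and 6 d pool 2. Of the 58 genes that rose, 55 were tested and 2 were called higher, 3.64% of these genes and 1.22% of the 164 cortical genes called higher and tested in the hippocampus. Leaving out hippocampal libraries gave 0 to 5 such genes, except 35 without 6 d pool 3. The median log2 fold change in the cortex was −0.22 for the genes that fell in the hippocampus and 0.06 for those that rose, against 0.00 over all genes tested in both regions.

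Of the 31 shared genes that fell, 14 were among the 21 returning genes and 17 among the 79 without a hippocampal 1 h call. Of the 21, 14 were called lower at 6 d than at 1 h in the cortex, with a median log2 fold change of −0.95, and 15 had been called higher there at 1 h than in naive rats, where 0.782% of all genes tested were (0.657% were lower, 1.44% together). In the cortical pools their median level relative to naive was −0.05, −0.00 and −0.01 on the log2 scale at 6 d, against 0.89, 0.83 and 1.02 at 1 h. Of the 79 genes that fell without a hippocampal 1 h call, 78 were tested in the cortex, 17 were called lower at 6 d than at 1 h there, and 10 had been called higher there at 1 h than in naive rats. Their cortical medians relative to naive were −0.04, −0.05 and 0.03 at 6 d, against 0.14, 0.20 and 0.15 at 1 h. The 58 genes that rose had cortical medians of 0.05, −0.05 and −0.07 at 6 d, against −0.04, −0.09 and −0.11 at 1 h, with overlap between the groups.

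Of the genes given by ID, ENSRNOG00000000640 differed between the times by −3.50 in the cortex (edgeR adjusted p = 6.27e-12) and ENSRNOG00000016164 by −1.28 (edgeR adjusted p = 0.0145). The other two were too low in the cortex to be tested there, with 0 to 18 counts per library. The test of the regional difference itself, in all 18 libraries, passed for none of these 4 genes, with edgeR adjusted p-values of 0.527 to 0.974.

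Across all genes, the change between the times differed between the regions for 39 of 14784 genes (0.264%), and 20 of them were called in the hippocampus. For 16 of the 39 (0.108%) the change was more negative in the hippocampus than in the cortex. Of these 16, 10 were called lower in the hippocampus and 0 in the cortex, with median log2 fold changes of −0.48 in the hippocampus and 0.21 in the cortex over the 16. For the other 23 (0.156%) the change was more positive in the hippocampus. Of these 23, 17 were called lower in the cortex, 6 of them in the hippocampus as well, and 4 were called higher in the hippocampus alone. Among the returning genes 7 of 21 passed this test, 5 with the larger fall in the cortex. The other two fell in the hippocampus, by 0.47 and 0.59 on the log2 scale, and had log2 fold changes of 0.01 and 0.17 in the cortex. Among the genes without a 1 h call the regional test was passed by 9 of the 79 that fell, 8 of them more negative in the hippocampus. It was also passed by 4 of the 58 that rose. The hippocampal calls come from the same pools as this test, which by itself favours a larger change in the hippocampus. The counts of called genes that passed it are therefore a description. For most genes called in the hippocampus the test did not pass, which does not show that the regions were alike. The count of 39 was 12 to 20 without 1 h pool 1 or 3 or 6 d pool 2 of the hippocampus, and 13 to 25 without 1 h pool 2 or 3 or 6 d pool 2 or 3 of the cortex.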

How the data were processed

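The deposited values are whole-number read counts per Ensembl gene, not normalized, 1 table per library with 32662 gene rows. Reads that belong to no gene (5 further entries per table) did not enter library sizes or any test. In hippocampal libraries the unaligned share was 44.3% to 51.8% and the no-feature share 10.1% to 12.4%. The submitters' processing notes name Rnor_6.0, Picard 1.126, bedtools 2.17.0 and DESeq2. Not given in the sources used here are the aligner, the counting program, the annotation and the strand setting, so overlapping, antisense or near-identical genes are uncertain. Per the labels' protocols, stranded libraries of polyadenylated RNA were read in pairs of 150 nt. Depth bounds precision: 3 counts of a hippocampal library's total gene count equal 0.328 to 0.390 CPM before TMM scaling, a limit for counting error only, since PCR copies are not told apart.

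The edgeR package 4.0.16 under R 4.3.3 gave all main tests (TMM, filterByExpr by group, glmQLFit, glmQLFTest, two-sided, Benjamini-Hochberg over all genes tested) in the 9 libraries of a region, and for the regional difference in all 18. Standard errors come from the F statistic. Log2 levels by pool used a prior count of 2. The script was tested on simulated data. Replicate libraries differed beyond sampling noise (chi-square per degree of freedom 1.76 to 4.38 over 9 hippocampal pairs), and p-values measure the spread between pools, which the labels describe as independent. Groups were taken from sample titles. The comparison, gene classes and lists were chosen with earlier results of these data known. The IDs given were chosen by rule as the largest and smallest log2 fold changes among called genes whose pools did not overlap and whose higher group averaged 1 CPM or more, 2 in each direction since no names were available. Gene lists and markers were not tested for that reason. Alternatives were DESeq2 1.42.0, limma 3.58.1 voom, RLE factors, no filter, other sets of libraries, a no-feature covariate, a replicate block, each library left out, and thinning to equal depth, the last chosen after seeing the data, as were the alternatives for the prelimbic count and the naive position.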

Additional observations from a re-analysis of the deposited data

Results flagged for a closer look

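For 39 genes the change between 6 d and 1 h differed between the dorsal hippocampus and the prelimbic cortex, which is why they are listed here (edgeR interaction test over 18 libraries, adjusted p under 0.05). The change was more positive in the hippocampus for 23 and more negative for 16. No group held enough pools to look for a single outlying pool.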

How the results depend on the processing

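Counts of calls varied with the settings. Without a filter on low counts, 623 genes were called between the times (299 higher and 324 lower, against 58 and 100), with 117 early genes back, 438 genes without a 1 h call, 180 genes raised and 95 lowered at 1 h against naive (31 and 1 with the filter), 31 called against naive at 6 d (0 with the filter), 102 genes lower in both regions (31 with the filter) and 172 in the regional difference. With the no-feature share as covariate the counts were 482 between the times, 43 early genes back, 426 without a 1 h call, and 68 raised and 17 lowered at 1 h. Deviations of 6 d and 1 h pools with the same replicate number correlated at 0.01 to 0.09, and 1 of 3 pools correlated best with its own number. With 3 pools per group, and naive pools not included, these correlations cannot decide whether replicate numbers pair the pools. The replicate block gave 549 calls between the times, 72 early genes back, 444 without a 1 h call, 110 raised and 40 lowered at 1 h, 3 called against naive at 6 d, and 65 lower in both regions. DESeq2 gave 33 early genes back, 56 raised and 2 lowered at 1 h and 1 called against naive at 6 d. For the hippocampal comparison of 6 d with 1 h, its adjusted p was not available for 3 of the 4 genes given by ID. With only the groups compared, 32 early genes were back, 98 were raised and 30 lowered at 1 h; with all 18 libraries 48 were raised and 2 lowered at 1 h, and with thinned libraries 2 were lowered. Taking an unadjusted p of at least 0.05 as no 1 h change left 29 genes. For RLE factors and limma voom all these counts stayed within 1.5 times.

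With single libraries left out, calls between the times ran from 18 to 343, early genes back from 10 to 25, genes without a 1 h call from 6 to 313, genes raised at 1 h from 14 to 57 and lowered from 0 to 9, calls against naive at 6 d from 0 to 1, genes lower in both regions from 11 to 43 and the regional difference from 12 to 46. The median naive position ran from 0.46 to 0.91 for genes that fell and 0.40 to 0.72 for genes that rose. The difference between regions was −0.16 for ENSRNOG00000016164 and ran from −0.92 to 0.19 (0.06 without hippocampal 1 h pool 3, 0.03 without 6 d pool 1, 0.19 without 6 d pool 2, 0.11 without cortical 6 d pool 2). For ENSRNOG00000000640 it was 0.16 and ran from −0.17 to 0.43 (−0.07 without hippocampal and −0.17 without cortical 6 d pool 1). Neither passed in any alternative. Low counts limit ENSRNOG00000000640, with 3 to 6 counts per hippocampal library at 6 d. They also limit ENSRNOG00000010378 and ENSRNOG00000027432, with 1 to 11 and 7 to 19 at 1 h. ENSRNOG00000016164 had 33 to 253 counts per hippocampal library. Apart from fits with fewer libraries, the cause of these shifts was not tested.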
